A study of Homo sapiens with 12 samples.

Results

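A set of 1101 promoter regions carried a CTCF peak in all 4 genotypes studied and never overlapped an SMC1 peak. They were taken from 53945 regions that resulted from merging the 4 CTCF peak lists wherever intervals overlapped by at least 1 bp. A region was included when every genotype had a CTCF peak in it, when no SMC1 interval of any genotype touched it, and when the wild-type CTCF summit lay within 1 kb of the start of a GENCODE transcript. Of the 53945 regions, 34622 had CTCF in every genotype and are called constant, and 6950 of these lay within 1 kb of a start. The members were selected on CTCF and SMC1 peak calls, whose values are given as a description and were not tested.

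HAP1 cells, which supplied all libraries, are human leukaemia cells that carry about 1 copy of each chromosome. The wild-type line was compared with 3 mutants, namely ΔWAPL, ΔSCC4 and the double mutant ΔWAPL/ΔSCC4, and all 4 share the mutant p53 of the parental line. Values listed for 4 genotypes are in the order wild-type, ΔWAPL, ΔSCC4, double mutant. The mutants are clones. Per the study's methods, CRISPR-guided insertion of a blasticidin resistance cassette disrupted WAPL, a puromycin cassette disrupted SCC4, and the double mutant was made by deleting SCC4 from ΔWAPL cells, so that it shares their history. Each genotype was represented by 1 CTCF, 1 SMC1 and 1 IgG library without replicates, and differences between genotypes therefore could not be separated from differences between libraries.

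CTCF is a zinc-finger protein that binds a long, directional DNA motif and marks the anchors of chromatin loops. SMC1 is a subunit of cohesin, the ring complex that holds DNA together and is thought to enlarge loops until it meets CTCF. SCC4 works with SCC2 to load cohesin, and WAPL releases cohesin from DNA. CTCF also binds next to many transcription starts, which is where the 1101 regions lie.

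The binding sites of strong or high-scoring regions are shown first, because they carry the motif that most of these regions share. The motif was learned on odd-numbered chromosomes from 1000 wild-type peaks of high CTCF, 961 of which gave a site, and its consensus was TGGCCACCAGGGGGCGCTG. Each line gives the site in capitals with 5 flanking bases in lower case, read 5′ to 3′ on the strand of the motif from the hg19 reference genome. The genes named are those whose start is nearest.
SUOX: ccgtcCGGCCTCTAGAGGGCAGTGtatgg
POLR2J: cctccAGCCCAACAGGGGGCGATGagccg
AUTS2: caaatCATCCATAAGGTGGTGCTAgttga
SMC4: gtgctACGCCACTAGGGGGTAGCAtcccc
NDFIP2: aaaaaCAGCCACTAGATGGTAGTGatgac
MPP2: tataaTGACCAGCAGGGGCCACCAacagc
RPS29: aatttATTCCAGTAGGTGTCACTGgtgag
ACTL8: gggctTTGCCAGTAGAGGGCGCTGgggag
GTF2IRD1: gcaggCTGCCACCAGGTGGCAGCGgaact
On the plus strand lay the sites of SUOX (chr12:56390077-56390095, in a UTR), MPP2 (chr17:41987724-41987742, intergenic) and ACTL8 (chr1:18081761-18081779, intergenic). On the minus strand lay those of POLR2J (chr7:102119423-102119441, intergenic), AUTS2 (chr7:70163402-70163420), SMC4 (chr3:160131612-160131630), NDFIP2 (chr13:80115758-80115776), RPS29 (chr14:50053729-50053747) and GTF2IRD1 (chr7:73959707-73959725), the last 5 with the summit in an intron. ACTL8 had the highest motif score among members with a protein-coding nearest start, 22.9 bits (a sum of log2 likelihood ratios over the 19 positions), with 15 of 19 consensus bases. The AUTS2 site scored 9.63 bits with 11 consensus bases, although its CTCF peak was among the 3 strongest of members with a protein-coding nearest start.

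Depth was read from the peak lists. Each list gives a fold enrichment and a p-value for every summit, and together these fix the whole number of reads at the summit and the background against which it was tested. The lowest background of a list, taken as the genome-wide average, without knowing whether it was counted in the ChIP or the IgG library, was 6.53 to 8.41 reads per kb in the CTCF lists, 6.79 to 8.41 in the SMC1 lists and 5.43 to 9.05 in the IgG lists. The CTCF lists held 37625 to 47608 peaks and the SMC1 lists 12779 to 33952. Membership rests on these deposited SMC1 lists, whose lengths are not those given in the study's text. The study reports more SMC1 peaks in ΔWAPL and fewer in ΔSCC4 than these lists hold, and a longer list could take regions out of the set. None of the members overlapped an IgG peak (0 of 1101).

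CTCF peaks at the members were weak compared with those at other promoters. The fold enrichment over background at the wild-type summit had a median of 8.72, a range of 3.50 to 26.4 and middle values from 6.79 to 11.5 (25th to 75th percentile). The same median was 18.8 in the 2345 constant promoter regions that overlapped SMC1 in all 4 genotypes, 12.9 in the 3504 with SMC1 in 1 to 3 genotypes, and 8.90 in the 6097 constant regions that were never with SMC1 and lay farther from a start, here called distal. In reads, the median wild-type summit held 23 at a member and 77 at a promoter with SMC1 throughout. The members were therefore counted with fewer reads than the promoter regions with SMC1 they are set against. The median wild-type background was 1.61 reads at members and 3.02 at promoters with SMC1 throughout, so equal fold enrichments need not mean equal reads. The median fold enrichment of the members in the mutants was 8.42 (ΔWAPL), 7.64 (ΔSCC4) and 8.51 (double mutant).

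Over all constant promoter regions, 15.8% were never with SMC1 (1101 of 6950; 95% Wilson interval 15% to 16.7%), against a background of 20.8% over all constant CTCF regions (7198 of 34622) and 22% of distal ones. Intervals here and below cover counting error over regions, which are not replicates of a genotype. The share varied with the strength of CTCF. At a wild-type fold enrichment of up to 5 it was 38.8% (52 of 134). Of promoter regions with a wild-type fold enrichment above 5 and up to 7, 40.5% were never with SMC1 (253 of 625). The share was 37.1% from 7 to 9, 23.9% from 9 to 12, 11.6% from 12 to 16 and 3.54% from 16 to 20. Above 20 it was 1.09%, which is 15 regions of 1373, while 68.2% of those strong regions overlapped SMC1 in every genotype. A weaker peak is also a peak with fewer reads, and the SMC1 lists hold only what passed their threshold, so an SMC1 signal below that threshold was not measured.

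**Figure D1:**
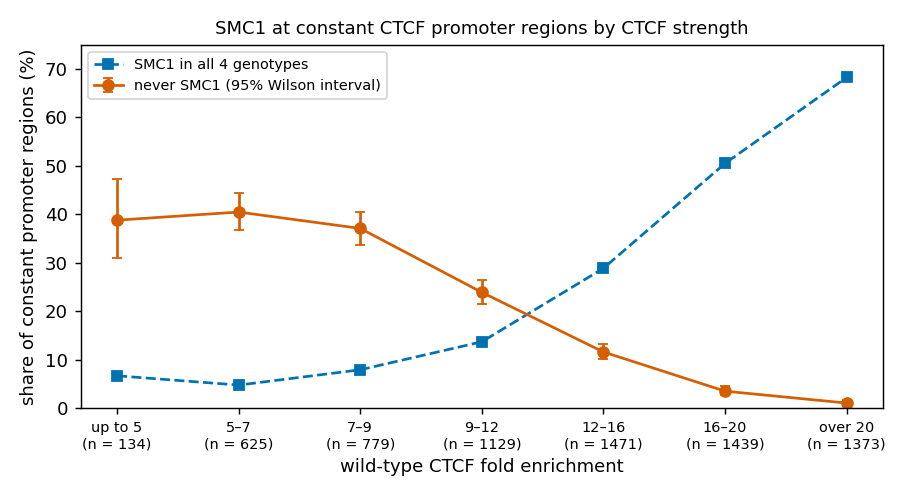
Share of constant CTCF promoter regions (%, y axis) that were never with SMC1 (circles, with 95% Wilson intervals) or overlapped SMC1 in all 4 genotypes (squares), by wild-type CTCF fold enrichment (x axis). The share never with SMC1 goes from 40.5% at 5 to 7 to 1.09% above 20, and the 2 lines cross between the bins 9 to 12 and 12 to 16.

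Some members had strong CTCF in every genotype. All 4 fold enrichments reached 10 at 186 of the 1101. Among members with a protein-coding nearest start, the strongest by its lowest value was near an alternative start of SUOX, which encodes the mitochondrial enzyme that oxidises sulfite. Its fold enrichments were 23.4, 21.7, 22 and 22.9. The 4 values lay close together, and the nearest SMC1 interval of any genotype was 33069 bp away. POLR2J, a subunit of RNA polymerase II, had 24, 22.8, 21.1 and 27.2, with the summit at -62 bp from the canonical start. Its near-identical copy POLR2J3 was also a member, and with short reads the authors' mapping could have split reads between them.

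AUTS2, a gene linked to neurodevelopment, had 22, 19.1, 18.3 and 20.0 at an alternative start inside the gene. SMC4, which encodes a subunit of condensin, the complex that compacts mitotic chromosomes, had 19.7, 17.8, 18.7 and 19.9. Its summit lay in an intron. TAF7, a subunit of the general transcription factor TFIID, had 19.7, 18.6, 17.7 and 21.2 with the summit in a UTR. Wild-type and the double mutant were the highest pair at SMC4 and TAF7, and the other two genotypes were lower.

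NDFIP2, an adaptor for ubiquitin ligases, had fold enrichments of 21.1, 18.8, 17.7 and 17.9, and MPP2, a scaffold protein of the membrane, had 20.1, 18.6, 17.7 and 17.9. Wild-type was highest at both. RPS29, a protein of the small ribosomal subunit, had 19.3, 19.8, 17.7 and 18.1. In these 3 genes ΔSCC4 held the lowest value. Across the 1101 members the highest fold enrichment was a median of 1.41 times the lowest, 1.87 times at the 90th percentile and 2.90 times at most. The highest of the 4 values came from wild-type at 375 members, from the double mutant at 299, from ΔWAPL at 272 and from ΔSCC4 at 155.

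**Figure D2:**
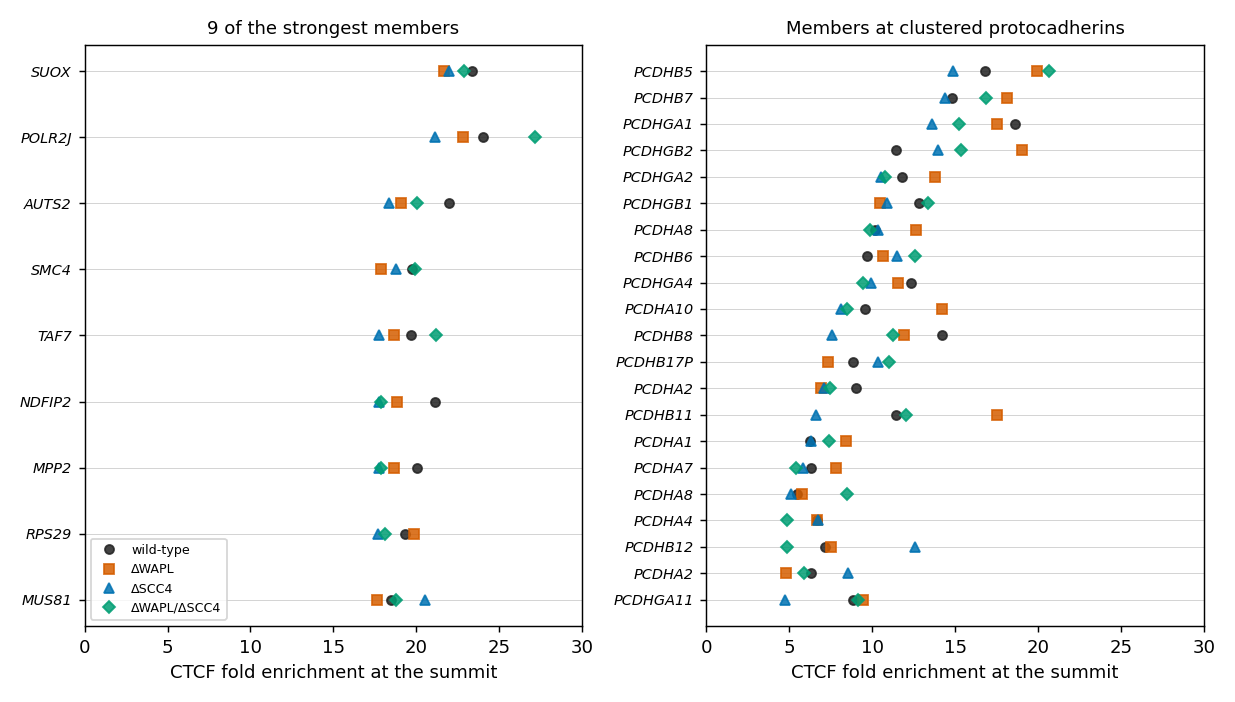
CTCF fold enrichment at the summit (x axis) by genotype (circles wild-type, squares ΔWAPL, triangles ΔSCC4, diamonds the double mutant), 1 library each, at 9 of the strongest members with a protein-coding nearest start (left) and the 21 members nearest to a clustered protocadherin start (right, where PCDHA2 and PCDHA8 have 2 regions each). These 9 lie between 17.6 and 27.2 in every genotype, whereas the protocadherin regions lie between 4.73 and 20.7.

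Genotypes were then compared through the reads at the summit, each divided by the genome-wide average background of its own list, called the library average below. The median ratio to wild-type over the members was 0.835 for ΔWAPL (95% interval from order statistics 0.820 to 0.857), 0.801 for ΔSCC4 (0.787 to 0.812) and 0.938 for the double mutant (0.926 to 0.960). Over all 34622 constant regions the same medians were 0.815, 0.800 and 0.911. When reads were instead divided by their median over the constant regions of the library, the members stood at 0.992, 1.01 and 1.01, so that the values below 1 depend on the scaling, and by fold enrichment at 0.958, 0.884 and 0.966.

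A difference of more than 1.5 times was used to mark single regions. In ΔWAPL cells, 44 members (4.00%) were above 1.5 times wild-type against 3.45% of all constant regions, and 239 (21.7%) were below its inverse against 17.0%. In ΔSCC4 cells, 19 (1.73%) were above against 0.936%, and 269 (24.4%) below against 22.6%. In the double mutant, 64 (5.81%) were above against 4.79%, and 118 (10.7%) below against 6.92%. The median wild-type summit of a member held 23 reads, as given above, and the part of low read numbers in these counts was not tested.

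The widest ratios were sought among members with at least 30 reads at the wild-type or ΔWAPL summit. At an alternative start of TPR, a component of the nuclear pore, the 4 summits held 19, 67, 22 and 19 reads. ΔWAPL stood apart from the other three, at 2.79 times wild-type after scaling. CPEB2, which encodes a regulator of mRNA translation, had 15, 41, 15 and 20 reads (2.16 times), again with ΔWAPL alone high. NSG1, a neuronal endosomal protein, had 18, 47, 26 and 29 (2.07 times). The double mutant, which also lacks WAPL, stood at 0.889 times wild-type at TPR and 1.19 times at CPEB2.

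At the other end, ATCAY, a gene mutated in a hereditary ataxia, had 30, 13, 9 and 14 reads, and all 3 mutants were below wild-type. The ΔWAPL ratio was 0.343. RAX, a homeobox gene of eye development, had 32, 15, 29 and 23 reads (ratio 0.371). These values rest on 1 library per genotype and single summits of few reads.

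**Figure D3:**
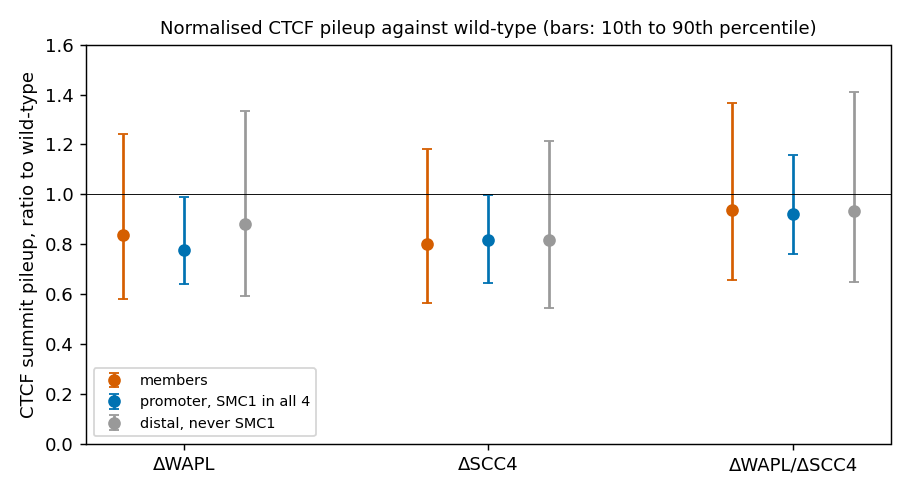
CTCF reads at the summit, divided by the library average, as a ratio to wild-type (y axis) in each of the 3 mutants (x axis). Points are medians over the members, over constant promoter regions with SMC1 in all 4 genotypes and over constant distal regions never with SMC1, and bars run from the 10th to the 90th percentile. The members' medians of 0.835, 0.801 and 0.938 lie close to those of the other sets.

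The CTCF motif was less common at the members than at promoters with SMC1. A match was a score above the level reached by 5% of windows placed 1 kb downstream. The match shares here and by bin of fold enrichment were taken on even-numbered chromosomes, which played no part in learning the motif. The median scores and the later motif counts cover all chromosomes, also those used for learning, unless stated otherwise. The peaks used for learning had high CTCF, however. Of promoter regions with a wild-type fold enrichment above 20, 68.2% overlapped SMC1 in every genotype and 1.09% never did. How far this choice of peaks lowered the scores, matches and consensus bases of the members was not tested. Within 50 bp of the summit, 65.4% of the members had a match (335 of 512; 61.2% to 69.4%), against a background of 85.6% of all constant CTCF regions. The share was 95.2% at promoters with SMC1 in all 4 genotypes, and the difference of -29.7 percentage points (95% Newcombe interval -34.1 to -25.5) did not include 0. Promoters with SMC1 in 1 to 3 genotypes stood at 86.5%. At distal regions never with SMC1 the share was 66.7%, and the difference of -1.23 points (-5.78 to 3.14) did include 0. Windows 1 kb downstream had a match at 6.45% of members, 8.61% of promoters with SMC1 throughout and 3.41% of distal regions never with SMC1. The difference between members and those distal regions was 3.03 points (1.07 to 5.57). The part of such unequal rates in the match shares was not tested.

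The motif difference was then examined within bins of wild-type fold enrichment, which match neither the reads nor the background at the summit. Between a wild-type fold enrichment of 12 and 16, 67.1% of the members (49 of 73) and 94.0% of the promoters with SMC1 throughout had a match, a difference of -26.9 points (-38.6 to -16.4). From 9 to 12 the difference was -12.2 points (-22.3 to -0.339), and from 7 to 9, with 26 regions in the SMC1 set, it was -19.7 points (-33.1 to 0.467) and included 0. From 5 to 7, where the SMC1 set held 10 regions, it was -5.30 points (-30.2 to 24.7). Against distal regions never with SMC1 the difference was -3.34 points from 5 to 7 (-13.1 to 6.23), -2.48 from 7 to 9 (-11.4 to 5.95), 7.39 from 9 to 12 (-1.54 to 14.9) and -12.1 from 12 to 16 (-24.0 to -1.68). The best score in each window, matched or not, had a median of 9.47 bits (8.83 to 10.1) at the members and 16.2 bits (16 to 16.5) at promoters with SMC1 throughout.

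A CpG sits at positions 15 and 16 of the motif, counted from 1 at the 5′ end of the consensus. Of matched sites, 34.5% of those at members (246 of 713) and 57.3% at promoters with SMC1 throughout held it, a difference of -22.8 points (-26.7 to -18.7). At distal regions never with SMC1 the share was 15.6%. Median GC around the summit was 49.8% at members, 64.2% at promoters with SMC1 throughout and 42.3% at those distal regions. The part of this surrounding sequence in the CpG share of the motif was not tested. Single positions differed too. On even-numbered chromosomes the C at position 15 was present in 71.0% of the members' sites and 86.6% of the sites with SMC1 throughout, and the G at position 14 in 82.4% and 91.2%. Others differed the other way, with the T at position 18 present in 50.1% and 34.6% and the T at position 1 in 39.7% and 28.8%. The G at position 10 was present in 100% and 98.4%. The motif lay on the strand of the nearest transcript in 55.3% of matched members and 54.8% of matched promoters with SMC1 throughout, and the difference of 0.467 points (-3.74 to 4.64) included 0.

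Of all 1101 members, 388 (35.2%) had no match within 50 bp. Their median wild-type fold enrichment was 7.96 (7.57 to 8.34), against 9.0 (8.82 to 9.35) for the 713 with a match. Summits with strong CTCF and no match even within 100 bp included those at MUS81, DEF8, ERCC5 and PLAC8. MUS81, a DNA repair nuclease, had fold enrichments of 18.5, 17.6, 20.5 and 18.7, with the summit at -41 bp from the canonical start. DEF8 had 19.8, 19.8, 17.3 and 18.6, and its summit lay at -9 bp from the nearest start. In neither gene did 1 genotype stand far from the others. The summits of the next pair overlapped no exon, and the sequence within 50 bp of them is shown on the plus strand, because their CTCF peaks stood in sequence without a match. ERCC5, a repair endonuclease, lies at chr13:103500044-103500144 and PLAC8 at chr4:84031667-84031767.
ERCC5: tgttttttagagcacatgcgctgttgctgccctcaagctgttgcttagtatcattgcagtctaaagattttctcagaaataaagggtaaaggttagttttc
PLAC8: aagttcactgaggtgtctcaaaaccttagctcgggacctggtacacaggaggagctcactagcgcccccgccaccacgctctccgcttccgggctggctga
ERCC5 had fold enrichments of 18.3, 20.8, 15.5 and 16.6, and PLAC8 had 15.3, 17, 15.5 and 15.7. No match says only that no stretch of these windows reached the threshold of the learned motif.

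The label of promoter was checked against the annotation. The canonical start of a gene lay within 1 kb of 567 members (51.5%; 48.5% to 54.4%), so that the other members were near an alternative start alone. The share was 64.9% at promoters with SMC1 throughout, a difference of -13.4 points (-17.0 to -9.92). A canonical start of a protein-coding gene was within 1 kb of 28.9% and 43.9%, respectively. The nearest start belonged to a protein-coding gene at 737 members (66.9%), a lncRNA at 192 (17.4%), a pseudogene at 84 (7.63%), a small RNA at 49 (4.45%) and an immune receptor segment at 39 (3.54%). At promoters with SMC1 throughout the lncRNA share was 25.2%, a difference of -7.81 points (-10.6 to -4.89). The shares of pseudogenes, small RNAs and immune receptor segments were 3.37%, 2.43% and 0.384% at promoters with SMC1 throughout, and each difference excluded 0.

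Summits of members lay inside genes more often. An intron held 529 (48.0%), a coding exon 96 (8.72%), a UTR 104 (9.45%) and an exon of a non-coding transcript 168 (15.3%), while 204 (18.5%) were intergenic. At promoters with SMC1 throughout, 38.6% were in an intron and 29.9% were intergenic, differences of 9.45 points (5.91 to 13) and -11.4 points (-14.2 to -8.35). Coding exons differed by 3.86 points (2.06 to 5.84), and the differences for UTRs and non-coding exons included 0. Against promoters with SMC1 in 1 to 3 genotypes coding exons differed by 1.21 points (-0.568 to 3.21), which included 0. UTRs differed from that set by -2.31 points (-4.25 to -0.178).

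The position within the 1 kb window differed as well. The summit was upstream of the nearest start at 52.0% of members (49.0% to 54.9%) and at 65.5% of promoters with SMC1 throughout, a difference of -13.5 points (-17.0 to -9.98). The 100 bp just upstream of the start held 11.4% of members and 27.7% of promoters with SMC1 throughout. The median distance to the start was 352 bp (320 to 389) at members and 171 bp (153 to 181) at the others.

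**Figure D4:**
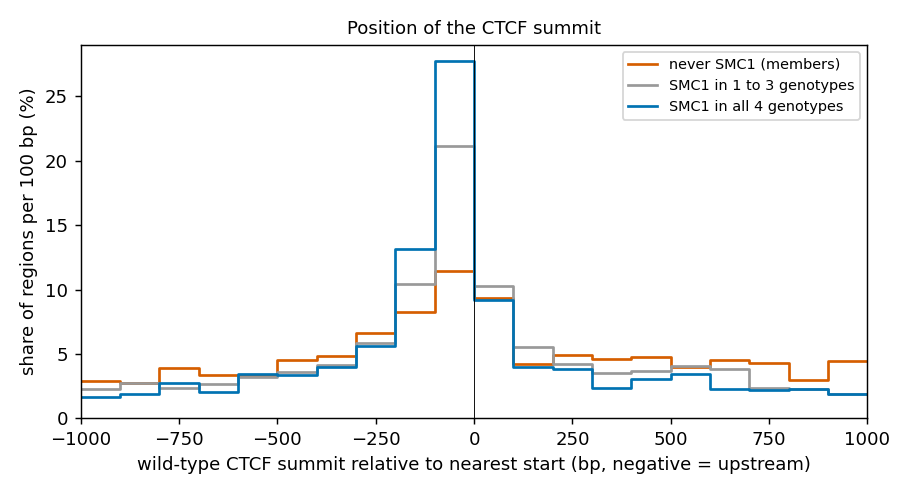
Share of regions per 100 bp (%, y axis) by position of the wild-type CTCF summit relative to the nearest start (x axis, bp, negative upstream) for members and for constant promoter regions with SMC1 in 1 to 3 or in all 4 genotypes. The 100 bp just upstream hold 11.4% of members, 21.1% of regions with SMC1 in 1 to 3 genotypes and 27.7% of those with SMC1 in all 4.

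CpG islands, stretches rich in the dinucleotide CG that are usually unmethylated, surround most promoters of widely used genes. A summit was called CpG-rich when the window of 100 bp on each side of it had at least 50% GC and an observed to expected CpG ratio of at least 0.6. This held for 17.7% of members (195 of 1101; 15.6% to 20.1%), 55.9% of promoters with SMC1 throughout and 1.26% of distal regions never with SMC1. The differences were -38.2 points (-41.1 to -35.1) and 16.4 points (14.3 to 18.8). Median GC was 49.8%, 64.2% and 42.3%, in the same order. The gap was present within bins of wild-type fold enrichment too, which do not match reads or background. It was -38.2 points (-46.8 to -28.8) between fold enrichments of 9 and 12 and -43.2 points (-49.0 to -36.2) between 12 and 16. Among members near a canonical start 28.2% were CpG-rich.

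**Figure D5:**
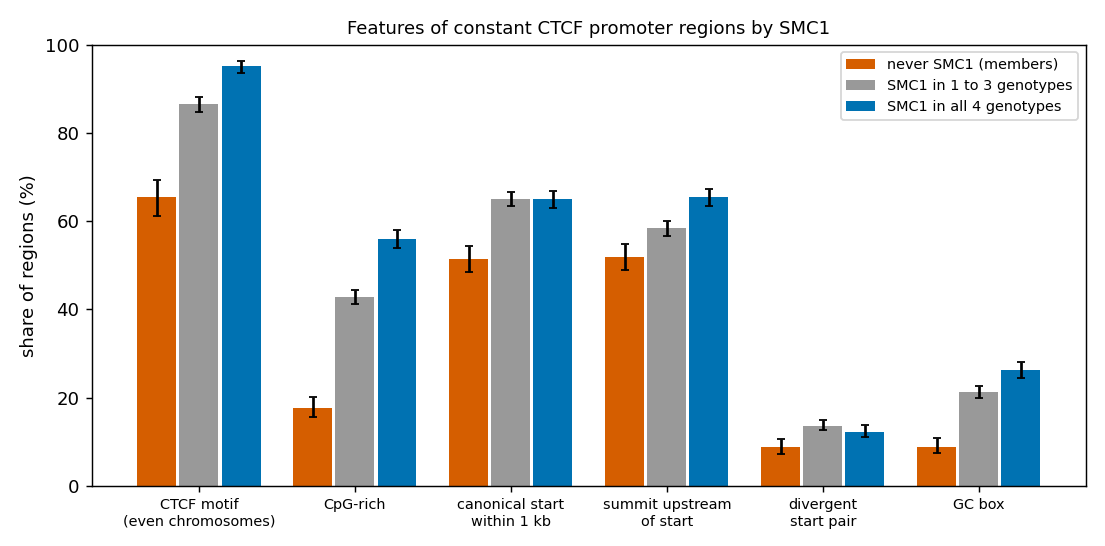
Share of regions (%, y axis) with each feature (x axis) among members and among constant promoter regions with SMC1 in 1 to 3 or in all 4 genotypes, with 95% Wilson intervals. Members have the lowest bar for each of the 6 features, for example 65.4% against 95.2% for the CTCF motif and 17.7% against 55.9% for CpG-rich sequence.

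Divergent start pairs, in which genes on opposite strands start back to back within 1 kb, were found at 97 members (8.81%; 7.28% to 10.6%) and at 12.3% of promoters with SMC1 throughout, a difference of -3.47 points (-5.54 to -1.25). Members were less often near a canonical start than those promoters. Among members near a canonical start the share was higher, as given at the end, and the matching share of those promoters was not computed.

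Short promoter motifs were counted as exact letters on either strand within 50 bp of the summit. The GC box GGGCGG, bound by SP and KLF factors, was present at 8.90% of members, 26.2% of promoters with SMC1 throughout and 2.08% of distal regions never with SMC1, and in 18.0% of windows of the same length on all annotated starts. Its first letters, GGGCG, also occur in the CTCF consensus above. The difference to promoters with SMC1 throughout was -17.3 points (-19.7 to -14.8). The YY1 core GATGGCG was at 1.63% of members, 3.97% of those promoters and 2.21% of start windows, and the ETS core CCGGAAG at 0.908%, 2.39% and 4.25%. Both differences to the promoters with SMC1 throughout excluded 0. Against promoters with SMC1 in 1 to 3 genotypes the ETS difference was -1.35 points (-2.03 to -0.471). The YY1 difference to that set was -1.02 points (-1.86 to 0.0326) and included 0.

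Other short motifs were more frequent at members than at promoters with SMC1 throughout. Median GC was lower at the members (49.8% against 64.2%), and its part in these counts was not tested. TATAAA, the TATA box, was at 4.18% of members against 1.07% of promoters with SMC1 throughout, a difference of 3.11 points (1.96 to 4.50). CCAAT, bound by NFY, was at 10.3% and 7.21%, a difference of 3.06 points (1.06 to 5.22). Against promoters with SMC1 in 1 to 3 genotypes the TATAAA difference was 2.41 points (1.27 to 3.81). To that set CCAAT differed by 1.59 points (-0.336 to 3.71) and ACTACAA by 0.376 points (-0.199 to 1.21), and both intervals included 0. ACTACAA, part of the ZNF143 motif, was at 1.09% of members and 0.426% of promoters with SMC1 throughout, a difference of 0.663 points (0.0771 to 1.49). It was at 1.23% of distal regions never with SMC1 and 0.949% of start windows, close to the share of members. TATAAA and CCAAT were more frequent again at distal regions never with SMC1, at 7.64% and 14.6%, and in start windows they stood at 4.33% and 11.6%. The differences to promoters with SMC1 throughout for the NRF1 motif GCATGCG, the E-box CACGTG and the cyclic AMP response element TGACGTC included 0. Against promoters with SMC1 in 1 to 3 genotypes TGACGTC differed by -0.708 points (-1.07 to -0.220). None of these intervals was adjusted for the number of motifs.

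Members near clustered protocadherin starts formed a dense group, a pattern chosen after its values were seen. Clustered protocadherins are neuronal adhesion proteins encoded in arrays on chromosome 5, as alternative first exons in the alpha and gamma clusters and as separate genes in the beta cluster, each with its own promoter. Of 30 constant CTCF promoter regions with such a nearest start, 21 were never with SMC1 (70.0%, against 15.8% of all constant promoter regions), 8 had SMC1 in 1 to 3 genotypes and 1 in all 4. The 21 summits lay at a median of -55 bp from the start, with the 25th and 75th percentiles at -90 and -19 bp. A motif match was found at 12, and all 12 lay on the strand of the gene. Of these, 6 sites are shown because those of the alpha genes resemble one another, as do those of the beta genes.
PCDHA1: tacatTGGCCACATGATGTCGCTGtacac
PCDHA2: cctttTAGCCACATGATGTCGCTGtccac
PCDHA10: acctaAAGCCACCGGATGTCGCTGtcgtc
PCDHB5: aaattAGGACGCCTGGTGGCGCTGcaggc
PCDHB7: tccacAAAACGCAAGGTGGCGCTGctggc
PCDHB11: ctatgGAGACACTTGGTGGCGCTGcagga
All lay on the plus strand, at chr5:140165673-140165691, chr5:140174368-140174386, chr5:140235428-140235446, chr5:140514763-140514781, chr5:140552149-140552167 and chr5:140579105-140579123. They scored 13.4, 11.6, 12.7, 12.6, 12.4 and 12.5 bits, in that order, below the median of promoters with SMC1 throughout. PCDHB5, at chr5:140514575-140515034, had the highest lowest value of the 21, with fold enrichments of 16.8, 19.9, 14.9 and 20.7. PCDHGA1 had 18.6, 17.5, 13.6 and 15.2 and no match. PCDHB11 had 11.4, 17.5, 6.61 and 12.1, with ΔWAPL the highest and ΔSCC4 the lowest. The genes of the cluster resemble each other, and the part of reads that fit several copies was not tested.

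Variable segments of immune receptors formed further groups, also chosen after their values were seen. These segments are joined to others in lymphocytes to build antibodies and T cell receptors. Of 36 constant promoter regions at T cell receptor V genes 16 were members (44.4%), and of 62 at immunoglobulin V genes 23 were (37.1%), against 15.8% of all constant promoter regions. All 16 of the former and 18 of the 23 latter had a motif match, and every one of these matches lay on the strand of the gene. The T cell receptor summits lay at a median of -204.5 bp from the start and the immunoglobulin summits at 508 bp. Sites of both kinds are shown because copies of one family carry nearly the same letters.
TRAV8-3: gcactTGGCCTCCAGAGGGCGATGctgca
TRAV8-5: gcactTGGCCTCCAGAGAGCGATGctgca
IGHVIII-16-1: gctcaGGACCACCAGGGGGCGCTCaggac
IGHVIII-82: actcaGAACCACTAGGGGGCGCTCaggac
The first pair lay on the plus strand at chr14:22320434-22320452 and chr14:22370957-22370975, and the other on the minus strand at chr14:106627119-106627137 and chr14:107287616-107287634, all with the summit in intergenic sequence. TRAV8-3 had fold enrichments of 21.6, 19.7, 19.3 and 19.8, and TRAV8-5 had 14.9, 15, 15 and 15.6. By fold enrichment, neither showed a genotype that stood apart. The pseudogene IGHVIII-16-1 had 15.8, 12.1, 11.3 and 15.1, and its site had the second highest score of all members at 23.1 bits. Like the protocadherins, the segments are near-repeats of each other.

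Gene groups were counted through the nearest start of a protein-coding gene. At such starts 15.4% of constant promoter regions were members (737 of 4784). Of 16 groups, the share of members was highest at proteasome subunits (5 of 16 regions), followed by histone lysine methyltransferases and demethylases (4 of 14), cytosolic ribosomal proteins (6 of 24), RNA polymerase and Mediator subunits (8 of 35), translation initiation factors (4 of 19) and zinc-finger proteins (18 of 88). It was lowest at small GTPases (3 of 41), genes of replication and the cell cycle (4 of 53), the respiratory chain and ATP synthase (2 of 23) and cohesin and its regulators (1 of 10). Close to the background were chaperones (2 of 12), mitochondrial ribosomal proteins (3 of 20), splicing factors (4 of 27), tRNA synthetases (2 of 14), solute carriers (12 of 88) and ubiquitin conjugation and deubiquitination (3 of 22). The interval of every group included 15.4% (for the proteasome subunits it ran from 14.2% to 55.6%). No group made up more than 2.44% of the 737 members. That share belonged to the zinc-finger proteins, which make up 1.84% of the 4784 regions and 2.96% of protein-coding genes.

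Among the proteasome genes, PSMD1 had fold enrichments of 17.4, 14.7, 15.8 and 13.3, with a motif score of 20.0 bits, and PSMD2 had 9.48, 11.4, 10.9 and 8.10. At PSMD1 wild-type was highest, whereas at PSMD2 it was the second lowest. The ribosomal protein genes ranged from RPS29, given above, to RPL22, named after its values were seen, with 3.50, 3.23, 4.48 and 5.37. RPS19 had 11.6, 10.9, 11.2 and 10.6, a narrow spread. The histone methyltransferase gene EZH1 had 16.4, 13.7, 12.4 and 11.8 and SETD5 had 11, 9.91, 5.83 and 5.36. Both SCC4 deletions were the lowest at EZH1 and SETD5.

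The initiation factor gene EIF1 had 11.7, 13.3, 13.7 and 10.8, and EIF4EBP1, which encodes a repressor of initiation, had 12.9, 11.4, 10.9 and 12.6. ZNF335 had 19.7, 13.8, 15.1 and 17.3. All 3 mutants were below wild-type at ZNF335. RAB14, a GTPase of endosomal traffic, had 16.1, 17.2, 14.7 and 15.1, and the tRNA synthetase gene LARS1 had 15.2, 14.3, 12.6 and 12.7. The splicing factor gene LSM5 had 12.5, 15.9, 15.3 and 13.2, with an SMC1 interval 149 bp away in ΔWAPL and 279 bp away in wild-type cells.

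The 1 member in the group of cohesin and its regulators was in the CTCF gene itself, at chr16:67647796-67648113 in an intron. Its fold enrichments were 8.36, 5.94, 5.45 and 7.77. The 4 summits held 20, 15, 12 and 18 reads. The window had no motif match, was CpG-rich and lay 30418 bp from the nearest SMC1 interval of any genotype.

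The rule fixes that no SMC1 interval overlapped a member, and the distances describe how far the nearest lay. A distance expected for regions placed at random was not computed. The median distance from the CTCF summit to the nearest SMC1 summit was 33284 bp in wild-type (30700 to 36513), 15026 bp in ΔWAPL (13849 to 16855), 50306 bp in ΔSCC4 (46111 to 54352) and 25663 bp in the double mutant (23424 to 27645). The order of the distances is the reverse of the order of the list lengths, from 33952 SMC1 peaks in ΔWAPL to 12779 in ΔSCC4. At distal regions never with SMC1 the medians were 48812, 25624, 69944 and 33932 bp, each farther than at the members. An SMC1 interval of any genotype lay within 5000 bp of 306 members (27.8%), within 1 kb of 120 (10.9%) and within 100 bp of 10. Within 1 kb the count was 32, 108, 20 and 51.

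The members nearest to SMC1 show what the boundary means. At CCDC92 an SMC1 interval of ΔWAPL cells lay 21 bp away, and the next of any other genotype was 59283 bp away. Its CTCF fold enrichment was 10.6, 6.57, 5.64 and 7.31. At ACVR1C, a receptor of the TGF-beta family, SMC1 intervals of all 4 genotypes lay close, at 191, 81, 60 and 29 bp, and the CTCF values were 12.6, 11.7, 12.4 and 12.5. Near the other limit, the summits of ZNF469 and WDR70 lay 999 bp downstream of a start and that of MITD1 at -998 bp, while the first regions outside, at GSTA3, OSGIN1 and SFPQ, lay 1002, 1004 and 1008 bp away. Wild-type fold enrichments were 7.25, 13.2 and 10.3 inside and 5.76, 9.42 and 5.81 outside.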

How the data were processed

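ChIP-seq of CTCF, SMC1 and IgG was deposited as 12 peak lists, 1 per genotype and antibody. Per the study's methods, reads were mapped to hg19 with Bowtie2 at default settings, which report 1 placement for a read that fits several copies, and peaks were called with MACS2 2.1.1, with IgG named as control. In the deposited lists the authors give the fold enrichment, −log10 p-value, −log10 q-value, a score and the summit of each peak. Backgrounds above the minimum equalled whole reads in 10 kb within 0.02 at 99.98% or more of peaks in each list, so no scaling to another library was visible in them. In wild-type cells the lowest backgrounds were 6.53, 8.13 and 8.55 reads per kb in the CTCF, SMC1 and IgG lists. An IgG library shared by the lists and counted without scaling would give 1 value. The CTCF and SMC1 lists therefore do not share such a background. The lists do not state which library was counted, and fold enrichments and library averages are relative to that background. Where it was the ChIP library, a strong peak would raise its own background and lower its fold enrichment. Here the summit pileup was solved from fold enrichment and p-value (a unique solution for 99.6% to 100% of peaks) and divided by the library average.

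Starts were taken from GENCODE 44 lifted to GRCh37. Shares carry Wilson intervals, differences Newcombe intervals and medians order-statistic intervals, all at 95%. Python 3.11.15 with pysam 0.24.0 and scipy 1.17.1 was used, and the scripts were tested on simulated data. With 1 library per genotype and antibody, no test between genotypes was made. The regions, gene groups and motifs were chosen with earlier results of these data known. Genes were named by rank: the 10 highest lowest-of-4 fold enrichments, the 5 best motif scores, the 5 strongest without a match, the 3 highest and 3 lowest ΔWAPL ratios, the 3 regions on each side of the 1 kb limit, the 2 nearest to SMC1, and 2 of each gene group, all with a protein-coding nearest start. Some genes that this rule names are not reported here. Alternatives covered peak thresholds, start distance, annotation, merging, motif settings and scaling.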

Additional observations from a re-analysis of the deposited data

Results flagged for a closer look

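One pattern is given here because losing the same protein went with values of the members on opposite sides of 1 in 2 backgrounds. With 1 library per genotype the difference was not tested. The median summit pileup of the members, divided by the library average, stood at 0.860 times its starting value when WAPL was lost from wild-type and at 1.26 times when it was lost from ΔSCC4 cells. On loss of SCC4 it stood at 0.770 times in wild-type and 1.12 times in ΔWAPL cells. The median fold enrichment followed the same directions, with ratios of 0.966 and 1.11 for WAPL and 0.877 and 1.01 for SCC4. Over all constant CTCF regions the median region-wise ratios were 0.815 and 1.14 for WAPL and 0.800 and 1.12 for SCC4, against 0.835 and 1.17, and 0.801 and 1.12, over the members. With pileup scaled to the median of the constant regions the members stood at 0.992, 1.01 and 1.01 times wild-type in ΔWAPL, ΔSCC4 and the double mutant, so the side of 1 depends on the scaling.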

How the results depend on the processing

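No paired analysis was possible because each group held 1 library. Under other settings planned beforehand, 167 values of the main results stayed within the interval, direction or 1.5-fold range of the reported ones and 42 moved. Among the short motifs, gene groups and gene clusters 289 stayed and 47 moved. Keeping regions off IgG peaks, on chromosomes 1 to 22 and X, merged within 500 bp, with all 4 summits near a start or with 1 peak per list moved no main result. No member overlapped an IgG peak, 0 lay on chromosome Y and 1 had 2 CTCF peaks in 1 list. The IgG, chromosome and peak-count settings could therefore remove few or no members, and their values are among the 167.

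With CTCF −log10 q of at least 5, the share of promoter regions without SMC1 was 14.4% and the members' median fold enrichment 9.20. With at least 10, there were 558 members (9.91%), with a motif at 72.8%, a median fold enrichment of 11.2, pileup ratios of 0.818 in ΔWAPL and 0.920 in ΔWAPL/ΔSCC4, and 15.1% CpG-rich. With SMC1 −log10 q of at least 5, 21.0% of promoter regions were without SMC1, 22.3% of members CpG-rich and 10.9% at divergent pairs, and the distances to SMC1 were 39705, 19949, 61289 and 30166 bp in wild-type, ΔWAPL, ΔSCC4 and the double mutant. Counting SMC1 within 1 kb gave 14.1% without SMC1 and 17964 bp in ΔWAPL. Starts within 500 bp left 700 members (13.9%), 22.9% CpG-rich and 56.1% upstream. Starts within 250 bp left 431 (11.8%), 27.1% CpG-rich and 58.0% upstream, with distances of 37290, 18762 and 27766 bp in wild-type, ΔWAPL and ΔWAPL/ΔSCC4. Protein-coding starts gave 23% CpG-rich, 5.79% divergent, and 29242 and 45801 bp in wild-type and ΔSCC4. The stricter motif threshold gave 47.3%, the stricter CpG limits 13.8% and divergent pairs within 500 bp 6.18%. Dividing by the median of constant regions gave pileup ratios of 0.992, 1.01 and 1.01, and fold enrichment in place of pileup gave 0.958, 0.884 and 0.966 in ΔWAPL, ΔSCC4 and ΔWAPL/ΔSCC4.

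Of the alternatives chosen after seeing the data, fold enrichments from 7 to 9 took the motif difference to promoters with SMC1 throughout to -19.7 points, an interval that included 0. The difference to distal regions changed sign from 9 to 12, at 7.39 points with an interval that included 0, and from 12 to 16 it was -12.1 points, no longer including 0. From 12 to 16, 8.77% of members were CpG-rich. Members near a canonical start had a ΔWAPL/ΔSCC4 ratio of 0.963, with 28.2% CpG-rich, 14.8% divergent and 56.1% upstream. The cause of these shifts was not tested.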
